A study of Mus musculus with 2 samples.

Results

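The genes described here are 10 genes of neuropeptide signalling. Calcrl, Ramp1 and Crcp are components of the receptor for calcitonin gene-related peptide (CGRP), and Ramp2 and Ramp3 belong to the family of Ramp1. The others are the receptors Galr1, Galr2, Npy1r, Npy2r and Sstr2. All 10 were taken by symbol from the deposited tables, where they were present with 14 RefSeq transcripts, out of 24411 genes and 35034 transcripts. RNA-seq was performed on 2 libraries of dorsal root ganglion (DRG) neuron preparations from male C57BL/6 mice (C57BL/6J in the methods of the study) aged 6 to 8 weeks, each pooled from 10 animals. Alum-injected mice received 50% alum, an aluminium salt adjuvant, intraperitoneally in 200 µl of saline. The alum + KLH-immunized mice were given the same alum plus keyhole limpet hemocyanin (KLH, 100 µg), a mollusc protein that serves as a foreign antigen. Both groups were injected on days 0 and 14, and thoracic and lumbar DRGs were taken 14 days after the second injection, digested, enriched for neurons over albumin and depleted of B lymphocytes with beads. The label of the control library calls it both naïve and alum alone, and it is treated here as alum-injected. The libraries are called the alum pool and the KLH pool below. Each group is 1 pooled library, which leaves 1 value for a gene in each group, no spread between mice and no test of the immunization.

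Expression is given as TPM, a transcript abundance corrected for length and scaled to a sum of 1000000 in each library, and TPM was summed over the transcripts of a gene unless a transcript is named. TPM keeps no read numbers, so the depth behind each value is unknown. All 8 neuronal markers examined, among them Snap25 and Tubb3, were above 3 TPM in both pools, while 0 of 6 macrophage and 0 of 5 B lymphocyte markers were. Over all genes, 46.9% passed 3 TPM in the alum pool and 46.3% in the KLH pool. Markers of other cells also passed in both pools. These were 5 of 6 of satellite glia, 4 of 6 of Schwann cells, 3 of 6 of fibroblasts, 4 of 10 of endothelium and 1 of 8 of mural cells. In RNA from a mixed preparation, fewer cells of a type and less RNA per cell cannot be told apart.

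Sensory neurons of the DRG store neuropeptides in dense-core vesicles and release them at their peripheral and central endings, where the peptides act on G protein-coupled receptors of target cells and of the neurons themselves. The CGRP receptor is a complex in which Calcrl, the seven-helix receptor, binds its ligand only together with a single-pass receptor activity-modifying protein (RAMP). Pairing with Ramp1 gives the CGRP receptor, and pairing with Ramp2 or Ramp3 gives adrenomedullin receptors. Crcp, the receptor component protein, couples the complex to its signalling pathway and is also a subunit of RNA polymerase III, known there as RPC9. Galanin, neuropeptide Y (NPY) and somatostatin receptors signal mainly through inhibitory G proteins, except that Galr2 also couples to phospholipase C, and they are known in DRG neurons as modulators of excitability and transmitter release.

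The 3 RAMP genes differ enough in sequence for their reads to be separated. The coding part of the last exon, which holds most of the mature protein including its membrane span, has 253 bases in each of them, and its sequence is shown because the levels of these genes relative to each other are compared next. Capitals mark the runs of at least 5 bases that are the same at the same place in all 3 genes, of which there are 2 (GRCm38, plus strand, from chr1:91223106-91223358 for Ramp1, chr11:101247811-101248063 for Ramp2 and chr11:6676483-6676735 for Ramp3).
Ramp1: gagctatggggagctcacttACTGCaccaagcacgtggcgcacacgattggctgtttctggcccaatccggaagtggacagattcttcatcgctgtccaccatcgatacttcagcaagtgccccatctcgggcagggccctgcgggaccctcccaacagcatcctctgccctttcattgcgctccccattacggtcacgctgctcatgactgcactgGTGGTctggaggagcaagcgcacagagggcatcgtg
Ramp2: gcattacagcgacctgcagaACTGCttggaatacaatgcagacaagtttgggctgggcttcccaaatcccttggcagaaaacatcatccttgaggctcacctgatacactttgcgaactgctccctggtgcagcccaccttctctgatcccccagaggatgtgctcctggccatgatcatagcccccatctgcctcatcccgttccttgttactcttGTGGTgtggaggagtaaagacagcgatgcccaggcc
Ramp3: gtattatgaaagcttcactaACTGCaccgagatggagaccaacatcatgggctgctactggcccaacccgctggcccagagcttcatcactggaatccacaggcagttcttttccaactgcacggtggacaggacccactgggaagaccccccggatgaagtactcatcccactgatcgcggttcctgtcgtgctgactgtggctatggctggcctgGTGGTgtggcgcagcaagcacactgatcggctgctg
Aligned pairwise, Ramp1 and Ramp3 were identical at 60.3% of positions, Ramp2 and Ramp3 at 55.6% and Ramp1 and Ramp2 at 54.0%. The longest run that any pair shared was 9 bases, and whole transcripts of the 3 genes shared 0 stretches of 31 bases, the default length that kallisto matches.

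Crcp and Calcrl were above the detection threshold of 3 TPM in both pools. Of the RAMP genes, Ramp2 lay just above it and Ramp1 and Ramp3 lay far below it, also in both pools. Calcrl (NM_018782, GRCm38 chromosome 2, 84330626 to 84425411, minus strand, 16 exons) stood at 7.53 TPM in the alum pool and 7.34 TPM in the KLH pool. Ramp2 (NM_019444, chromosome 11, 101246028 to 101248250, plus strand, 4 exons) stood at 3.13 and 3.20 TPM in the same order. Ramp3 (NM_019511, chromosome 11, 6658521 to 6677475, plus strand, 3 exons) stood at 0.279 and 0.144 TPM, and Ramp1 (chromosome 1, plus strand) at 0.226 and 0.108 TPM. Ramp2 therefore made up 86.1% of the summed RAMP level in the alum pool and 92.7% in the KLH pool. The level of Calcrl exceeded that of Ramp2 by 2.41-fold and 2.29-fold, and that of Ramp1, the subunit needed for CGRP binding, by 33.3-fold and 68.2-fold. The Ramp1 ratio and the Ramp2 share differed between the pools mainly through Ramp1 and Ramp3 values far below 3 TPM. The read numbers behind these values are unknown.

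The Ramp1 signal rested on a single transcript. The files list 3 Ramp1 transcripts that share their second exon and then part, each with its own continuation, and 31-base stretches across these joints help to tell them apart. The 60 bases around the end of the second exon are shown with that exon in lower case and the exon that follows in capitals.
NM_016894: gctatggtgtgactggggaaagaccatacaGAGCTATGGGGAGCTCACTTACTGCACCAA
NM_178401: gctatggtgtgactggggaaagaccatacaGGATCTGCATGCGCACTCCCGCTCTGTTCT
NM_001168392: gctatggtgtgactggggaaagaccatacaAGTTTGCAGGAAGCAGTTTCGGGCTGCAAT
All 3 end their second exon at base 91196909 of chromosome 1, and the capitals begin at 91223106, 91206397 and 91205247 in the order listed. NM_016894, whose last exon is the one shown among the RAMPs above, carried all of the TPM, and the other two were listed at 0 in both pools. Its coding length is 447 bases against 312 and 318 bases for the other two.

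Crcp was the highest of the 10 genes. Its single transcript in the files (NM_007761, chromosome 5, 130029290 to 130060789, plus strand, 6 exons) stood at 47.9 TPM in the alum pool and 46.0 TPM in the KLH pool, and 15.8% and 16.1% of all genes were higher. Among 12 other subunits of RNA polymerase III, all were above 3 TPM in both pools, from 4.87 to 236.4 TPM in the alum pool and from 3.39 to 242.9 TPM in the KLH pool. The highest were Polr3g at 236.4 and 242.9 TPM, Polr3k at 93.5 and 101.6 TPM and Polr1d, which is shared with RNA polymerase I, at 66.8 and 64.9 TPM. The level of Crcp thus lay inside the range of the polymerase subunits and above Calcrl and every RAMP gene.

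**Figure D1:**
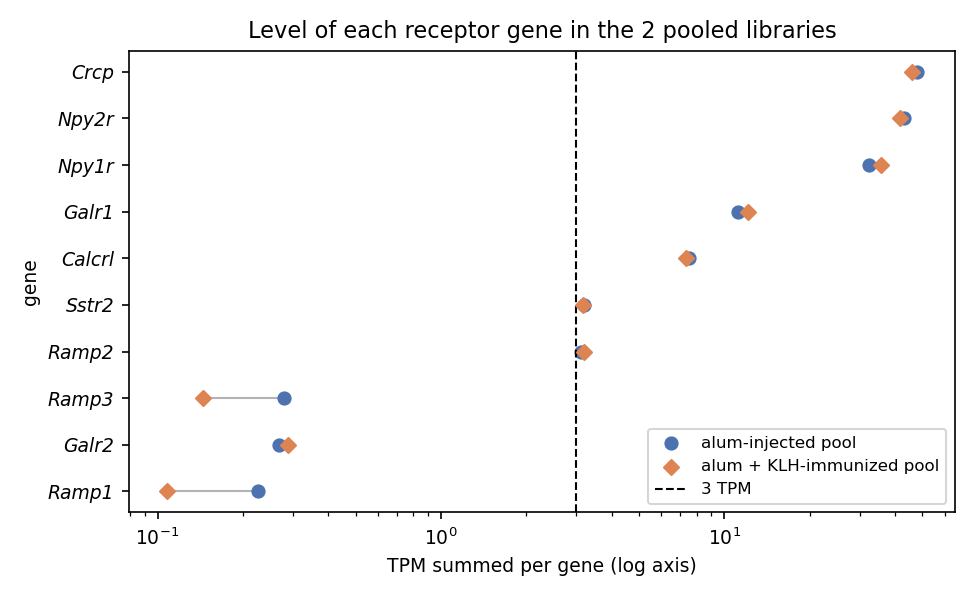
TPM per gene on a log axis for the 10 genes, with circles for the alum pool, diamonds for the KLH pool, a grey line joining the pools and a dashed line at 3 TPM. Crcp, Npy2r and Npy1r lie above 30 TPM, Sstr2 and Ramp2 lie just above the dashed line, and Ramp3, Galr2 and Ramp1 lie below 0.3 TPM.

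The galanin receptors were represented almost entirely by Galr1. Galr1 (NM_008082, chromosome 18, 82392380 to 82406777, minus strand, 3 exons) stood at 11.2 TPM in the alum pool and 12.2 TPM in the KLH pool. Galr2 (NM_010254, chromosome 11, 116280939 to 116283938, plus strand, 2 exons) stood at 0.268 and 0.288 TPM, and Galr3 was listed at 0 in both. The share of Galr1 in the summed level of the 3 receptors was 97.7% in each pool. None of the 31-base stretches of Galr1 or Galr2 occurred in another annotated gene.

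Receptors for NPY were the highest of the receptor families examined. Npy2r, the mainly presynaptic Y2 receptor, was at 43.2 TPM in the alum pool and 41.6 TPM in the KLH pool. Npy1r, the Y1 receptor (NM_010934, chromosome 8, 66697422 to 66706792, plus strand, 3 exons), stood at 32.5 and 35.7 TPM. The sum over 5 NPY receptor genes was 76.6 and 77.7 TPM, of which Npy2r held 56.4% and 53.5% and Npy1r 42.5% and 45.9%. Npy5r was at 0.889 and 0.382 TPM, Npy4r at 0 and 0.0883 TPM, and Npy6r was listed at 0. Which of the leading receptors was higher depended on how transcripts were counted. With only the highest transcript of each gene, the share of Npy2r was 51.3% and 47.4%, so that Npy1r exceeded it in the KLH pool.

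Npy2r has 2 transcripts in the files, and the one that lacks part of the coding sequence carried most of the signal. NM_001205099 skips a segment of 339 bases inside the coding sequence (GRCm38 chromosome 3, 82541040 to 82541378, minus strand), which leaves its coding length at 807 bases against 1146 bases in NM_008731. The sequences on either side of the place where they part are shown, with the shared exon in lower case and what follows in capitals.
NM_001205099: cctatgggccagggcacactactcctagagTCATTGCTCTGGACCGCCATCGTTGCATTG
NM_008731: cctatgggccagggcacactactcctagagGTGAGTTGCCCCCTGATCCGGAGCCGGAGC
The skipped segment begins with GT and ends with AG, the usual ends of an intron. NM_001205099 was at 35.1 TPM in the alum pool and 32.6 TPM in the KLH pool, and NM_008731 at 8.04 and 9.01 TPM. The spliced form thus held 81.4% and 78.3% of the Npy2r TPM. After multiplication of TPM by transcript length (1331 and 3364 bases), which approximates the share of reads, it held 63.4% and 58.9%.
These shares depend on the transcripts offered to kallisto. Only 56 of the 1301 stretches of 31 bases in NM_001205099 are absent from NM_008731, and the latter also has a longer 3′ untranslated region, of 1938 bases against 372. GENCODE lists 4 Npy2r transcripts, 3 of which keep the segment, and the 1 among them that ends at the same short 3′ end as NM_001205099 has no line in the files. Its share of the reads was not tested.

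Sstr2, the main somatostatin receptor on many neurons, showed the same kind of split at a level near the threshold. Its total was 3.19 TPM in the alum pool and 3.18 TPM in the KLH pool. NM_009217 (chromosome 11, 113619476 to 113625895, plus strand, 3 exons), the short splice form, was at 2.71 and 3.11 TPM. NM_001042606 (113619342 to 113626028, 2 exons), which reads through the same place, was at 0.480 and 0.0655 TPM. Thus the spliced form held 84.9% and 97.9% of the gene total, and in the alum pool neither transcript alone was above 3 TPM. The place where they part is shown as for Npy2r.
NM_009217: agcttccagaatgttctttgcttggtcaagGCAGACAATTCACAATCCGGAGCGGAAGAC
NM_001042606: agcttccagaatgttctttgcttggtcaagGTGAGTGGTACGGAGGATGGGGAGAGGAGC
Here the segment (113625250 to 113625588) also has 339 bases and also begins with GT and ends with AG, and it changes the coding length from 1110 to 1041 bases. In NM_009217 only 27 of 1507 stretches of 31 bases are absent from the other transcript. After multiplication of TPM by transcript length, NM_009217 held 80.2% and 97.2%. Its 3′ untranslated region has 259 bases against 662 in NM_001042606. The log2 ratio of NM_001042606, -0.47, exceeded the SD of 0.35 among the 500 transcripts closest in level. That of NM_009217, 0.15, was within its SD of 0.64. Both values of NM_001042606 lie far below 3 TPM, and the share of all transcripts past their SD was not counted. In the alum pool Sstr1 was at 3.45 TPM, above Sstr2, and in the KLH pool it was at 3.02 TPM, below Sstr2. Sstr3 was at 0.0479 and 0.0547 TPM, Sstr4 at 0 and 0.208 TPM, and Sstr5 was listed at 0.

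**Figure D2:**
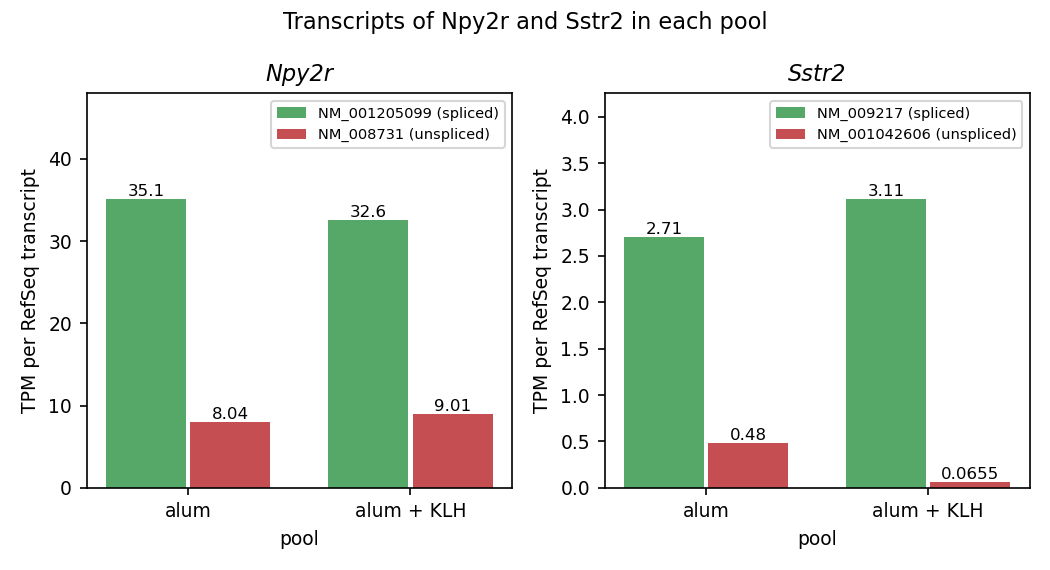
TPM of each RefSeq transcript of Npy2r (left) and Sstr2 (right) in the alum and KLH pools, 1 library each, with green bars for the transcript spliced inside the coding sequence and red bars for the unspliced one. The spliced transcript is the higher one in all 4 pairs, by the highest ratio for Sstr2 in the KLH pool (3.11 against 0.0655 TPM).

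Across the 10 genes, 7 were above 3 TPM in each pool, and these were the same 7 genes in both. Over all genes in the files, 46.9% passed this threshold in the alum pool and 46.3% in the KLH pool. The order of levels was Crcp, Npy2r, Npy1r, Galr1 and Calcrl in both pools, and the values of neighbours in this part of the order did not overlap between the pools. Sstr2 and Ramp2 exchanged places, from 3.19 and 3.13 TPM to 3.18 and 3.20 TPM. Among the lowest genes, the values of Ramp3 (0.144 to 0.279 TPM) overlapped those of both Galr2 and Ramp1, while Galr2 (0.268 to 0.288 TPM) lay above Ramp1 (0.108 to 0.226 TPM) in each pool. With 1 library a group, non-overlap of 2 values is a description only.

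**Figure D3:**
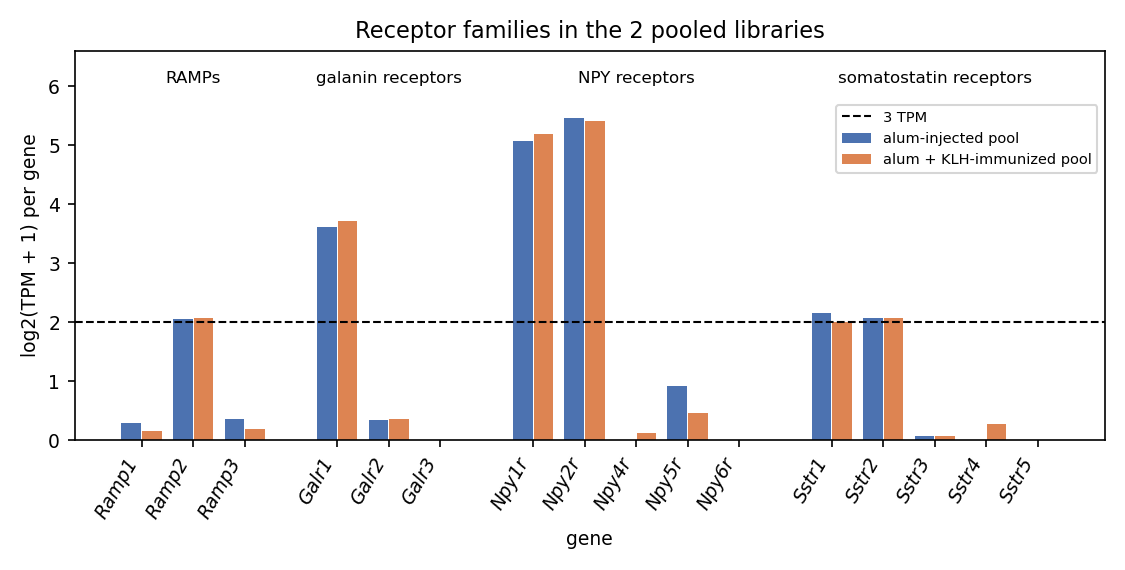
log2(TPM + 1) per gene for the RAMPs and the galanin, NPY and somatostatin receptors, with blue bars for the alum pool, orange bars for the KLH pool and a dashed line at 3 TPM. The galanin receptors have 1 gene above the line, the NPY receptors 2, the RAMPs 1 and the somatostatin receptors 2, and Galr3, Npy6r and Sstr5 are at 0.

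The 7 genes above 3 TPM differed little between the pools, as did most genes that passed this threshold. Differences are given as log2 ratios, KLH pool over alum pool, after adding 1 TPM to each value, which understates the change of low genes, beside the SD of the same ratio over the 500 genes closest in level. This SD describes how far similar genes differ between these 2 libraries and is not an error between mice. Of the 7 genes above 3 TPM, 0 were at least 1.5-fold apart, a limit that 2.56% of the 11648 genes that passed 3 TPM in either pool reached. Among those genes the share was 6.33% at a mean level of 10 TPM or less and 1.04% above it. The widest positive ratio was that of Npy1r, 0.13 with an SD of 0.16, followed by Galr1 at 0.11 with an SD of 0.23. Crcp was at -0.058 (SD 0.13), Npy2r at -0.053 (SD 0.11) and Calcrl at -0.032 (SD 0.52). Ramp2 had a ratio of 0.027 (SD 0.57) and Sstr2 one of -0.0024 (SD 0.52). The 3 genes below the threshold had ratios of -0.16 for Ramp3 (SD 0.18), -0.15 for Ramp1 (SD 0.17) and 0.022 for Galr2 (SD 0.21). With 1 TPM added, each of the 10 ratios was smaller than its SD. With 0.1 TPM added, those of Ramp1 and Ramp3 were -0.65 and -0.63, past 1.5-fold and past the SD taken with 1 TPM added. The median over the 10 genes was -0.017, beside -0.020 over those 11648 genes. Relative to the housekeeping gene Hprt, which shifts every log2 ratio of abundant genes by -0.085, Ramp2 changed its sign to -0.038, and relative to the median gene Sstr2 changed its sign to 0.012.

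**Figure D4:**
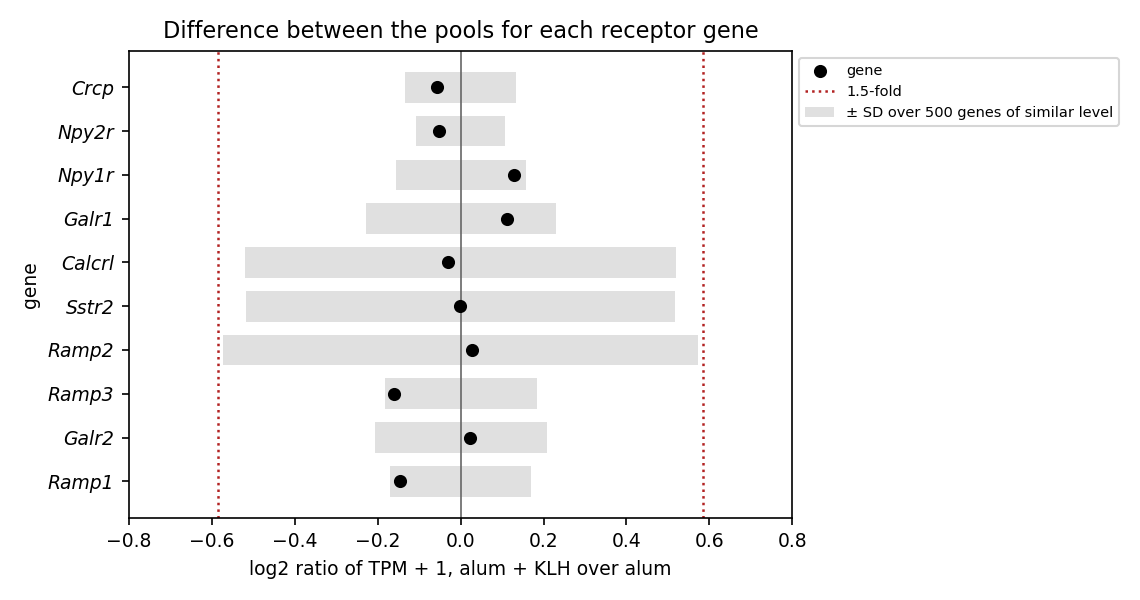
log2 ratio of TPM + 1, alum + KLH over alum, for each gene (black points), with grey bars from minus to plus 1 SD of the ratio over the 500 genes of similar level and dotted lines at 1.5-fold. All 10 points lie inside their grey bars and between the dotted lines, from -0.16 for Ramp3 to 0.13 for Npy1r.

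The genes of the ligands were read from a list of 11. Calca, which encodes CGRP, was at 6177 TPM in the alum pool and 5729 TPM in the KLH pool, 820.5-fold and 780.1-fold above Calcrl, and Calcb, the second CGRP gene, at 479.6 and 489.9 TPM. Adm, which encodes the adrenomedullin that binds Calcrl with Ramp2 or Ramp3, was at 2.14 and 2.43 TPM, and Adm2 was listed at 0. Gal, the precursor of galanin, was at 45.6 and 30.7 TPM, so that it exceeded Galr1 by 4.08-fold and 2.53-fold. Its log2 ratio of -0.55, past the SD of 0.14 of similar genes, fell short of the 1.5-fold limit and reached it only relative to Hprt. Sst, the precursor of somatostatin, was at 7.06 and 3.99 TPM, a log2 ratio of -0.69 with an SD of 0.23. Sst was the 1 ligand gene at least 1.5-fold lower, of 4 above 3 TPM. Of the 11648 genes that passed 3 TPM in either pool, 1.55% were at least 1.5-fold lower. Among those with a mean of 10 TPM or less, as Sst has, 6.33% were at least 1.5-fold apart in either direction. The SD was uneven at such levels, for example 0.52 for Calcrl and 0.23 for the endothelial gene Emcn. Npy was at 1.63 and 0.646 TPM, below both of its receptors Npy1r and Npy2r in each pool, with a log2 ratio of -0.67 and an SD of 0.40, and it did not pass 3 TPM. Cort, the precursor of cortistatin, which also binds somatostatin receptors, was at 0.167 and 0 TPM (log2 ratio -0.22, SD 0.14). Iapp, Galp and Pyy were listed at 0. Gal, Sst, Npy and Cort were the ligand genes whose ratio was below 0 by more than its SD, and Npy and Cort were below 3 TPM in both pools. The share of all genes past their SD was not counted, so this is a description only. Of the receptors for these ligands, Galr1 had a ratio of 0.11, Galr2 one of 0.022, Sstr2 one of -0.0024, Npy1r one of 0.13 and Npy2r one of -0.053.

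Other receptors and processing enzymes of the same systems were counted from lists. Of 9 other receptors of the families, 1, Sstr1, was above 3 TPM in both pools, and Calcr, the calcitonin receptor that also pairs with RAMPs, was at 0 and 0.0311 TPM. Among 45 further neuropeptide receptor genes, 5 passed 3 TPM in either pool and 3 in both. Npr2, the receptor of C-type natriuretic peptide, was at 28.7 and 23.9 TPM, the orexin receptor gene Hcrtr2 at 23.6 and 24.6 TPM and the cholecystokinin receptor gene Cckar at 24.6 and 22.4 TPM. The next were Avpr1a at 3.41 and 2.85 TPM, Grpr at 2.65 and 3.17 TPM and Mc3r at 2.83 and 2.77 TPM. Npy2r and Npy1r were thus higher than any of these 45 genes in both pools. Of 12 genes of peptidases, arrestins and receptor kinases, 11 were above 3 TPM in both pools. Dpp8 was at 331.0 and 337.5 TPM, Ide at 152.3 and 151.7 TPM, Arrb1, an arrestin that draws receptors from the membrane, at 76.9 and 71.4 TPM and Ece2 at 30.2 and 27.3 TPM. In these 3 lists, 0 genes were called at least 1.5-fold apart, among the 1, 5 and 11 that passed 3 TPM in either pool. Over all genes that passed, the share was 2.56%. Genes below 3 TPM in both pools did not enter this count, such as Npy5r at 0.889 and 0.382 TPM.

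Calcrl and Ramp2 are known in blood vessels as well as in neurons, and 10 endothelial markers were read beside them. Their median was 2.78 TPM in the alum pool and 1.69 TPM in the KLH pool. The highest value among them was 5.17 and 5.10 TPM, below Calcrl in each pool. Of the 10 endothelial genes, 4 were above 3 TPM in both pools, a threshold that 46.9% and 46.3% of all genes passed. The 10 genes summed to 28.4 TPM in the alum pool and 22.6 TPM in the KLH pool. Emcn was at 5.17 and 4.46 TPM, Cdh5 was at 3.79 and 3.15 TPM, and Cldn5 was at 0.142 and 0 TPM. All 10 were lower in the KLH pool, with a median log2 ratio of -0.21, beside -0.020 over the 11648 genes that passed 3 TPM in either pool. The share of all genes lower by any amount was not counted. Apart from Pecam1 and Cldn5, each of the 10 ratios was smaller than its SD over genes of similar level. Calcrl and Ramp2 had ratios of -0.032 and 0.027. The part of endothelium in the levels of Calcrl and Ramp2 was not tested. Mural cell markers, apart from Rgs5 at 172.2 and 162.4 TPM, were at most 2.00 TPM. Fibroblast markers summed to 88.1 and 88.4 TPM, of which Dcn made up 63.8 and 62.6 TPM. Among glial markers, Fabp7 of satellite glia was at 952.6 and 888.1 TPM and Pmp22 of Schwann cells at 1062 and 1021 TPM.

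Levels in these libraries also differed between classes of base composition. Over 27049 coding transcripts matched to GENCODE, the 90th percentile of TPM in the alum pool was 99.8 TPM at a GC content of up to 40%, 137.3 TPM at 40 to 45%, 96.5 TPM at 45 to 50%, 49.8 TPM at 50 to 55%, 16.7 TPM at 55 to 60% and 6.22 TPM above 60%. In the KLH pool it was 104.2, 141.7, 95.3, 47.8, 14.9 and 4.81 TPM in these classes. The receptor transcripts with the highest GC content that carried signal were Ramp2 at 60.1%, Galr2 at 59.0% and Ramp3 at 56.1%, and these 3 were at or below 3.20 TPM. Npy1r had a GC content of 43.3%. Calcrl, at 37.8%, fell in the class up to 40%, where the median was 0.719 and 0.774 TPM against 3.47 and 3.55 TPM at 40 to 45%. Over all matched transcripts, Spearman's rho of GC content and TPM was -0.149 and -0.163, a weak correlation across transcripts of the same libraries, which are not independent replicates. Ramp1 (NM_016894), at 52.6%, fell in a class of which 45.1% and 44.6% of transcripts were above 3 TPM. The part of base composition in the order of the receptor levels was not tested.

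**Figure D5:**
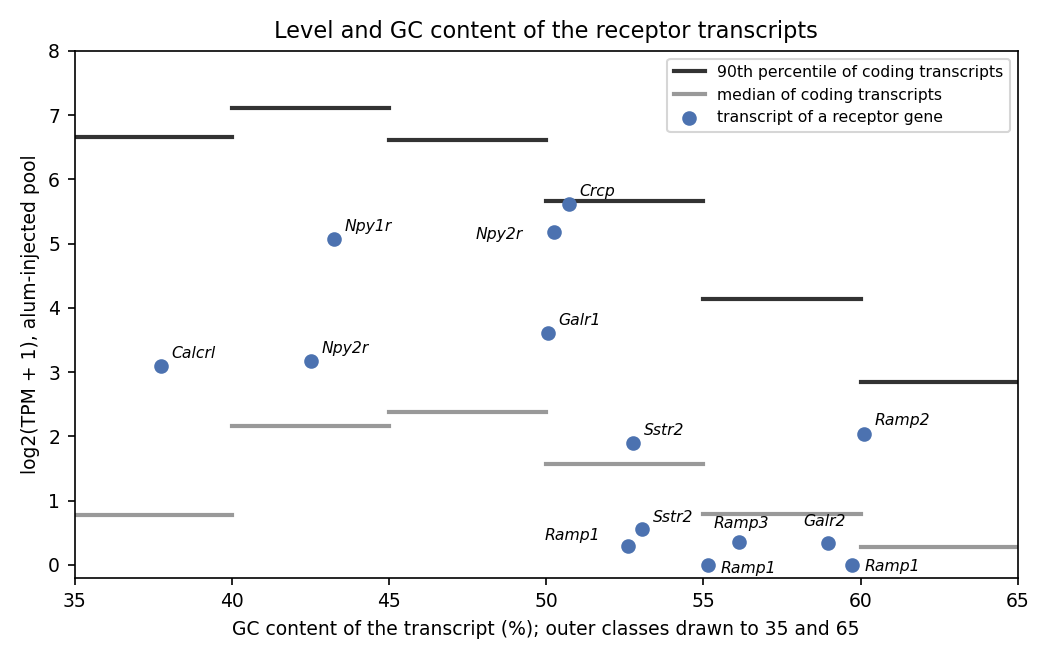
log2(TPM + 1) in the alum pool against GC content in percent, with blue points for the 14 transcripts of the 10 genes and grey and black lines for the median and the 90th percentile of all matched coding transcripts in 6 GC classes. The black line is at 99.8 TPM up to 40% GC, 137.3 TPM at 40 to 45% and 6.22 TPM above 60%, Crcp lies close to it, and Ramp1, Ramp3 and Galr2 lie near 0.

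Shared sequence could affect a few of the values. Apart from Calcrl, Npy1r and Ramp3, the transcripts of the 10 genes had no 31-base stretch in common with another annotated gene. Ramp3 overlaps Gm11978 on the opposite strand, which covers 6.15% of its stretches, and reads of the pair can be told apart only where kallisto was run with strand, which is not given in the sources used here. Npy1r and Calcrl shared 4.84% and 1.03% of their stretches with many genes.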

How the data were processed

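DRG neuron preparations pooled from 10 alum-injected and 10 alum + KLH-immunized mice were sequenced as stranded mRNA libraries. Per the labels and the methods of the study, the authors converted reads with bcl2fastq, trimmed them with cutadapt and quantified them with kallisto against the mm10 transcriptome, versions not given in the sources used here. The authors deposited TPM for each RefSeq transcript without read numbers, so neither depth nor counting intervals could be given. From them, TPM was summed per gene symbol, 3 TPM was used as detection threshold, and log2 ratios were formed with a pseudocount of 1 TPM. With 1 library per group no test was run. Genes at least 1.5-fold apart in TPM + 1 were counted among those above 3 TPM in at least one pool. The SD of the ratio was taken over the 500 genes closest in mean log2(TPM + 1).

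Positions, lengths and sequences came from GENCODE M21 (GRCm38, the assembly of mm10) through its RefSeq table, in which all 14 transcripts were found; transcript ends can differ from those of the authors' annotation. Named genes are the 10 genes, all ligands and family receptors, and the highest 6, 4 and 3 of the lists of other receptors, of peptidases and receptor traffic, and of polymerase subunits; markers of other cells were named after their values were seen. The genes and lists were chosen with earlier results of these data known. No gene of like pattern was sought, as 2 libraries give 1 ratio. Alternatives were other pseudocounts, thresholds, scalings and filters, removal of microRNA and small nucleolar RNA entries, and the highest transcript of a gene. Python 3.11.15, numpy 2.4.6, pandas 2.3.3, Biopython 1.88 and matplotlib 3.10.9 were used, and the counting was tested on simulated data.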

Additional observations from a re-analysis of the deposited data

How the results depend on the processing

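Over 6 alternatives, 56 of 60 log2 ratios of the 10 genes had the sign of the value reported. The exceptions were Ramp2 relative to Hprt (-0.038) and Sstr2 under 3 alternatives, of which its highest transcript gave the farthest value (0.15). Part of this count was fixed in advance, so it is no measure of robustness. Another pseudocount cannot change a sign, and the highest transcript changes a ratio only for Npy2r and Sstr2. With a pseudocount of 0.1 TPM the ratios of Ramp1 and Ramp3 moved past the SD taken with 1 TPM, to -0.65 and -0.63. Both are also past 1.5-fold there, but they lie below 3 TPM and so do not enter the count of genes at least 1.5-fold apart. That count was 0 under the 9 alternatives tried, of which the one without a filter on low values kept the pseudocount of 1 TPM. Of the 10 genes, 7 passed in each pool at 1 TPM and 4 at 10 TPM. By the highest transcript, 6 passed 3 TPM in the alum pool, and Npy2r held 51.3% of the NPY receptor sum there and 47.4% in the KLH pool. Alternatives for the ligands were chosen after seeing the data: Sst stayed beyond 1.5-fold in each, from -0.81 to -0.68, and Gal reached it only relative to Hprt, at -0.64. No paired analysis was possible because each group has 1 library. For the same reason no library could be left out. TPM keeps no read numbers, so how precisely the lowest genes (Ramp1, Ramp3 and Galr2) were measured is unknown.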
